A study of Saccharomyces cerevisiae with 6 samples.

Results

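The genes described are 37 Saccharomyces cerevisiae genes of autophagy and of protein breakdown in the vacuole. They were taken by name, by a rule that used no measured value, but earlier results of these data were known when they were chosen. Each standard name was matched to 1 systematic open reading frame (ORF) name, and all 37 were on the arrays and had a value on every array, out of 6377 ORFs in all. They comprise 20 genes of the core ATG machinery, 12 other ATG genes and 5 vacuolar hydrolases.

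Autophagy is the process by which a cell wraps cytoplasm or organelles in a double membrane and delivers them to the vacuole, the lytic compartment of yeast. The core ATG (autophagy-related) proteins build that membrane, receptors and scaffolds choose selective cargo, and the vacuolar proteases digest what arrives. The cytoplasm-to-vacuole targeting (Cvt) pathway is a selective form that runs in growing cells and carries vacuolar enzymes, whereas starvation for nitrogen is the classical trigger of bulk autophagy and raises the transcription of several ATG genes.

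The arrays compared mRNA of cells that had grown in medium with doxycycline (dox, 5 μg/ml) during 11 h with mRNA of untreated cells. Both samples came from the same haploid strain (background R1158), in which HSP82 was deleted and the other Hsp90 gene, HSC82, stood under a tetracycline-repressible promoter (TETp-HSC82), so that dox lowers the only Hsp90 left. The strain also lacked ARG4, LYS5 and CAR2 (arg4Δ, lys5Δ, car2Δ::URA3) and was grown in log phase with double amino acid supplements that included arginine (40 mg/l) and lysine (60 mg/l). The treated cells of culture 1 held light amino acids and those of culture 2 heavy ones. For each culture 3 RNA isolations went onto 1 array each, so that 6 arrays stand for 2 independent cultures. Dox-treated cells without the repressible promoter were not analysed here, and dyes were not swapped between arrays. An effect of dox itself or of the dye on a single gene therefore cannot be told apart from that of low Hsp90.

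All values are log2 ratios, dox-treated divided by untreated, so that 1 means a doubling in treated cells and a 1.5-fold change is 0.58. The ratio is relative to the rest of the mRNA in each sample, and a large change in a few cells cannot be told apart from a small change in all of them. HSC82 had a mean log2 ratio of −5.99 (standard error 0.16, adjusted p = 0.000658, limma with Benjamini-Hochberg adjustment over all genes) and was lower on 6 of 6 arrays. The probe of HSP82, a close paralog that the labels give as deleted in both samples, read −6.30 (adjusted p = 0.000658), with 2 arrays of culture 1 at the lowest value of the table (−6.64). A gene missing from both samples has no ratio of its own, so this value goes against the label or the Hsp90 probes are not specific to 1 gene, and which of these holds was not tested. The value of HSC82 is therefore that of its probe and may not be of HSC82 alone. Of the other deleted genes, CAR2 read −0.25 (5 values), ARG4 had 1 value and LYS5 had 0. Ratios were more spread in culture 1 (SD over all genes 0.54) than in culture 2 (0.40), and 63.1% of all genes lay further from 0 there. Arrays of culture 1 correlated more with each other than those of culture 2, with mean correlations across genes of 0.89 to 0.93 against 0.72 to 0.81 (genes are not independent replicates).

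A gene was called changed when its mean over the cultures exceeded 1.5-fold with an unadjusted p below 0.05 (limma over the 2 culture means). By that rule 4 of the 37 genes changed. ATG10 and ATG34 rose and ATG5 and ATG26 fell, and the other 33 did not meet the rule. The 2 rises are 5.41% of the genes described, beside 5.74% of the 6290 genes tested, and the 2 falls are also 5.41%, beside 4.74%. These shares lie near the background and are no result about autophagy genes as a class. With the adjusted p below 0.05 in place of the unadjusted one, 1 gene was higher (ATG10; 2.70%, beside 3.04% of all genes) and 0 were lower (beside 2.32%; 3 of the 37 were lower at an unadjusted p below 0.05, limma). The adjusted p of ATG10 rose above 0.05 with the arrays centered on their medians (0.0954) and with any array but the third of culture 2 left out (0.0518 to 0.0761).

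Many of the ratios were small, and more of the 37 genes were higher on all 6 arrays than lower on all 6. Of the 37 genes, 14 were higher on all 6 arrays (37.8%, beside 23.6% of the 6153 genes with complete values) and 5 were lower on all 6 (13.5%, beside 23.4%). When the fold threshold was dropped, 11 of the 37 were higher at an unadjusted p below 0.05 (29.7%, beside 14.0% of all genes) and 3 were lower (8.11%, beside 15.2%). The 37 genes had a median of 0.22 (culture 1) and 0.07 (culture 2), where all genes had −0.02 and 0.02. Of the 37, 21 had positive means in both cultures and 8 had negative means in both, together 78.4% beside 74.0% of all genes. This agreement of sign lay near that of all genes. Pearson's r between cultures was 0.61 over the 37 genes (Spearman's rho 0.61) and 0.67 over all genes. These points share arrays and reference samples, so the correlations are descriptive.

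**Figure D1:**
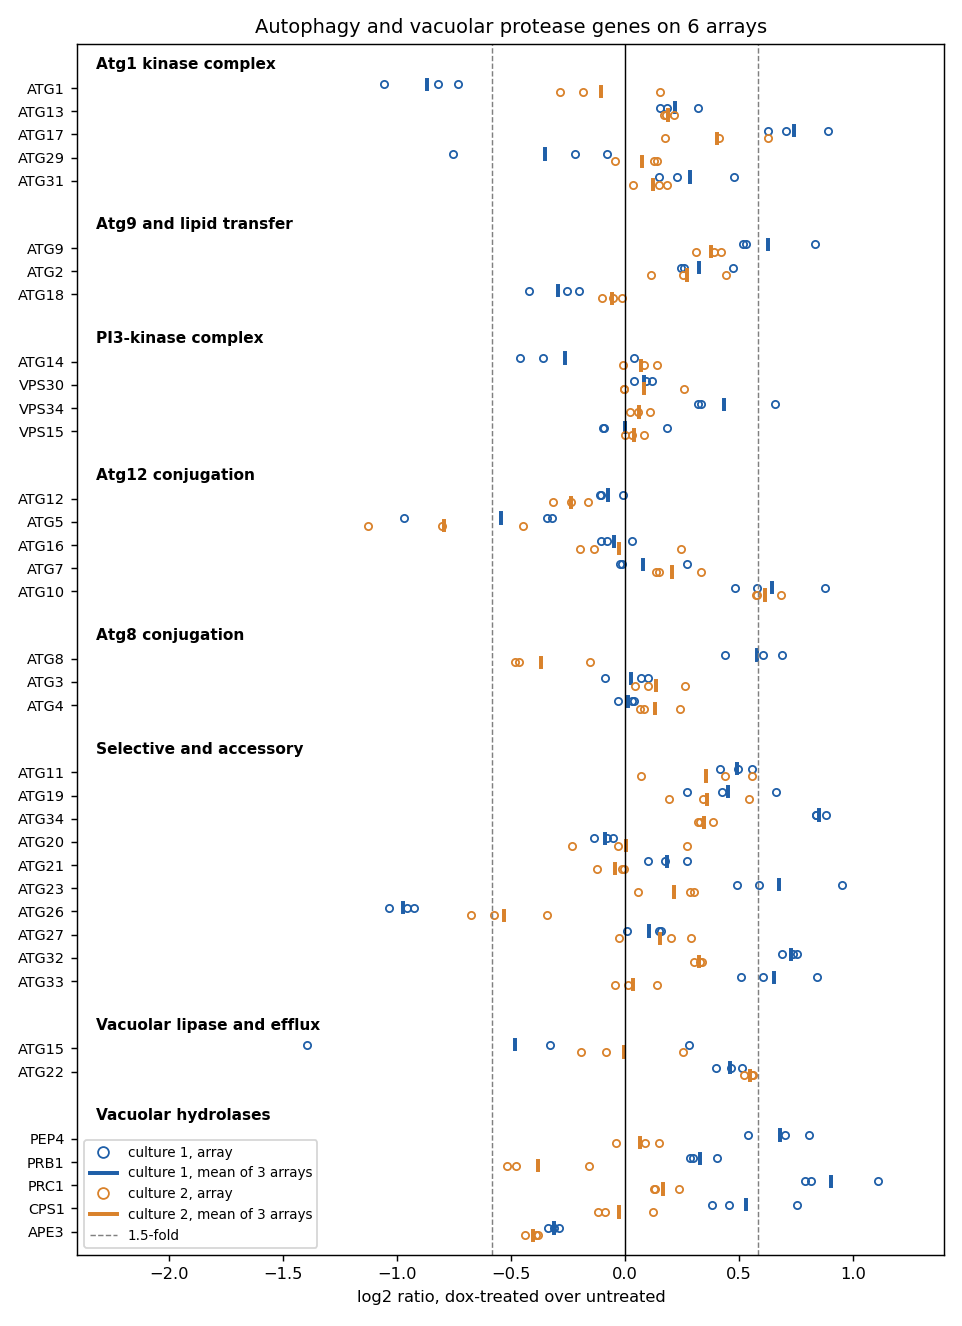
Log2 ratio of dox-treated over untreated cells (horizontal axis) for each of the 37 genes, grouped by role; open circles are the 3 arrays of each culture and vertical bars their mean, and dashed lines mark 1.5-fold. ATG26 and ATG5 lie to the left of 0 and ATG10 and ATG34 to the right on all 6 arrays, while the arrays of ATG8, PRB1 and ATG21 lie on opposite sides of 0 in the 2 cultures.

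Autophagy starts at the Atg1 kinase complex, whose 5 genes did not move together and of which none met the rule (1 of 5 had an unadjusted p below 0.05). The gene of the kinase itself, ATG1, gave −0.73, −0.82 and −1.06 on the arrays of culture 1 and 0.15, −0.18 and −0.29 on those of culture 2. All arrays of culture 1 thus lay below all arrays of culture 2. The mean of −0.49 had an adjusted p of 0.183. ATG17, the scaffold on which the complex assembles in starved cells, gave 0.63, 0.71 and 0.89 in culture 1 and 0.62, 0.18 and 0.41 in culture 2. It was higher on every array, and its mean of 0.57 fell just short of 1.5-fold (adjusted p = 0.0724). The subunits that bind ATG17, ATG29 (−0.35 in culture 1 and 0.07 in culture 2) and ATG31 (0.29 and 0.12), and the regulatory subunit ATG13 (0.22 and 0.19), stayed closer to 0.

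The next step supplies membrane. ATG9, which encodes the transmembrane protein of the vesicles that seed the new membrane, gave 0.53, 0.52 and 0.83 in culture 1 and 0.42, 0.31 and 0.39 in culture 2. Its mean of 0.50 (standard error 0.13) had an adjusted p of 0.0802 and did not reach 1.5-fold. The lipid transfer protein gene ATG2 was at 0.33 and 0.27, also higher on all 6 arrays, and ATG18, which encodes the phosphoinositide-binding partner of Atg2, was lower on all 6 (−0.29 and −0.06). Both accessory genes of Atg9 traffic had positive means, with ATG23 at 0.68 in culture 1 and 0.21 in culture 2 and ATG27 at 0.11 and 0.15.

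None of the 4 genes of the phosphatidylinositol 3-kinase complex met the rule by limma, and none had an unadjusted p below 0.05. The catalytic subunit VPS34 was at 0.44 in culture 1 and 0.06 in culture 2, and VPS15, its regulatory kinase, had a mean of 0.02. VPS30 (0.08 in both cultures), the yeast counterpart of Beclin 1, and ATG14 (−0.26 and 0.07), the subunit particular to the autophagy form of the complex, lay near 0 or differed in sign.

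The Atg12 conjugation system held 2 of the 4 called genes, and they went in opposite directions. ATG10 encodes the E2-like enzyme that passes the ubiquitin-like protein Atg12 to its target, Atg5. Its arrays read 0.58, 0.48 and 0.88 in culture 1 and 0.68, 0.57 and 0.58 in culture 2. The cultures overlapped fully, and ATG10 rose 1.55-fold (mean 0.63, standard error 0.12, adjusted p = 0.0472). ATG5, the acceptor of Atg12, gave −0.34, −0.32 and −0.97 in culture 1 and −1.13, −0.45 and −0.80 in culture 2. It was lower on all arrays but with a wide spread within each culture. The SD over arrays was 0.37 and 0.34, against a median over all genes of 0.11 and 0.12. ATG5 fell 1.59-fold (limma over the 2 culture means, mean −0.67, standard error 0.13, adjusted p = 0.0512). This standard error draws on the variance of all genes and does not use the spread between arrays of a culture. Without the third array of culture 1 the mean was 0.57 for ATG10 and −0.56 for ATG5, and without the first array of culture 2 it was −0.58 for ATG5, each below 1.5-fold. The ubiquitin-like gene ATG12 (−0.07 and −0.24), ATG16, whose product binds the conjugate (−0.05 and −0.03), and ATG7, the E1-like enzyme of both conjugation systems (0.08 and 0.21), did not meet the rule.

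ATG8, the gene of the ubiquitin-like protein that is joined to lipid and coats the growing membrane, differed most between the cultures among the 37 genes. On the arrays of culture 1 it gave 0.44, 0.60 and 0.69, and on those of culture 2 it gave −0.16, −0.48 and −0.47. It was thus higher in treated cells of culture 1 and lower in those of culture 2 on every array. The mean over both was 0.11 (adjusted p = 0.799). The E2-like enzyme ATG3 (0.03 and 0.14) and ATG4, the protease that trims Atg8 (0.01 and 0.13), were near 0 in both cultures.

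Among genes of selective autophagy and accessory genes, 1 rose (ATG34) and 1 fell (ATG26). These 10 genes had medians of 0.47 (culture 1) and 0.18 (culture 2), beside 0.05 and 0.08 for the 20 core genes. Of the 10, 7 were higher in both cultures, beside 11 of the 20 core genes. The share of all genes higher in both was not counted. ATG34 encodes the receptor that carries the mannosidase Ams1 to the vacuole in starved cells. Its arrays read 0.84, 0.88 and 0.84 in culture 1 and 0.39, 0.32 and 0.33 in culture 2. The arrays of each culture lay close together and the cultures did not overlap, and ATG34 rose 1.51-fold over both (mean 0.60, standard error 0.16, adjusted p = 0.0844). This call lies at the edge of the fold threshold, and with the arrays scaled to a common spread or quantile normalized the mean was 0.57 or 0.56 and was not called.

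ATG19, the paralog next to ATG34 on chromosome XV and the receptor of the Cvt pathway, was at 0.45 in culture 1 and 0.36 in culture 2 (adjusted p = 0.0955). ATG11, the scaffold that links receptors to the Atg1 complex, was at 0.49 and 0.35 (adjusted p = 0.0923). Probe sequences were not analysed here, so how far the probes of these paralogs tell them apart is uncertain.

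The ratios of both mitophagy genes were higher in culture 1 than in culture 2. ATG32, the receptor on the surface of mitochondria, gave 0.69, 0.75 and 0.74 in culture 1 and 0.30, 0.33 and 0.34 in culture 2, and its mean of 0.52 did not reach 1.5-fold (adjusted p = 0.0892). ATG33, another mitochondrial outer membrane gene needed for mitophagy, gave 0.51, 0.60 and 0.84 in culture 1 and 0.14, −0.05 and 0.01 in culture 2. For both genes the arrays of the cultures did not overlap. That was also so for other members, such as ATG8, ATG1 and PRC1, and the share over all genes was not counted.

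The largest fall among the 37 genes was that of ATG26, which encodes the sterol glucosyltransferase. Its name comes from a need for it in peroxisome breakdown in Pichia pastoris. The arrays of culture 1 read −0.93, −1.04 and −0.96 and those of culture 2 read −0.58, −0.34 and −0.67. ATG26 was lower on all 6 arrays, more so in culture 1, and fell 1.68-fold (mean −0.75, standard error 0.15, adjusted p = 0.0545). The sorting nexin gene ATG20 (−0.09 in culture 1 and 0.00 in culture 2) and ATG21 (0.18 and −0.05), which encodes a phosphoinositide-binding protein of the Cvt pathway, lay near 0.

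2 members act inside the vacuole without being proteases. ATG22 encodes a permease that releases amino acids from the vacuole. It gave 0.40, 0.46 and 0.51 in culture 1 and 0.56, 0.52 and 0.56 in culture 2, and its mean of 0.50 did not reach 1.5-fold (adjusted p = 0.0693). ATG15, the lipase that opens autophagic bodies, gave −0.33, 0.28 and −1.40 in culture 1 and −0.19, 0.25 and −0.08 in culture 2. Its spread over the arrays of culture 1 was larger than that of 99.9% of all genes (mean −0.24, adjusted p = 0.348).

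Of the 5 vacuolar hydrolases, 4 had positive means in culture 1 and 2 had them in culture 2. None of the 5 met the rule over both cultures by limma, and at an unadjusted p below 0.05 PRC1 was higher and APE3 was lower. PEP4, the aspartyl protease (proteinase A) that activates the other zymogens, gave 0.54, 0.70 and 0.81 in culture 1 and 0.15, −0.04 and 0.09 in culture 2. PRC1, which encodes carboxypeptidase Y, gave 0.81, 0.79 and 1.11 in culture 1 and 0.13, 0.24 and 0.13 in culture 2, with means of 0.90, the highest of the 37 genes in that culture, and 0.17. For both genes all 3 arrays of culture 1 lay above all 3 of culture 2.

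PRB1, the serine protease (proteinase B), turned its sign. The arrays of culture 1 read 0.28, 0.30 and 0.40 and those of culture 2 read −0.48, −0.16 and −0.52, and the mean was −0.03. CPS1, which encodes carboxypeptidase S, gave 0.38, 0.45 and 0.76 in culture 1 and 0.12, −0.09 and −0.12 in culture 2. APE3, which encodes aminopeptidase Y, went the other way, with −0.29, −0.31 and −0.34 in culture 1 and −0.44, −0.38 and −0.39 in culture 2. It was lower on every array and the 6 values were close together, but its mean of −0.36 (standard error 0.12, adjusted p = 0.124) did not reach 1.5-fold.

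To set the core machinery beside the hydrolases, the median of each class was taken in each culture. The 20 core genes had a median of 0.05 in culture 1 (from −0.87 for ATG1 to 0.74 for ATG17) and 0.08 in culture 2 (from −0.79 for ATG5 to 0.61 for ATG10). The 5 hydrolases had a median of 0.53 in culture 1 (from −0.31 for APE3 to 0.90 for PRC1) and −0.03 in culture 2 (from −0.40 for APE3 to 0.17 for PRC1). Hydrolases minus core machinery was 0.48 in culture 1 and −0.11 in culture 2. By array the difference was 0.35, 0.39 and 0.64 in culture 1 and −0.02, −0.19 and −0.17 in culture 2. For these 5 genes the difference thus had opposite signs in the 2 cultures. The sign in culture 2 depended on which hydrolases were counted. With the 6 other vacuolar hydrolases of the related list added, an alternative chosen after the data had been seen, the difference was 0.63 in culture 1 and 0.20 in culture 2. With 2 cultures a two-sided exact test cannot go below p = 0.5, so no test was made. All 5 hydrolases had a lower ratio in culture 2 than in culture 1, and so did 11 of the 20 core genes. For APE3 the difference was only 0.09 (limma between the cultures, adjusted p = 0.441). The share of all genes with a lower ratio in culture 2 was not counted, and genes read on the same arrays are not independent. These counts are therefore descriptive.

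**Figure D2:**
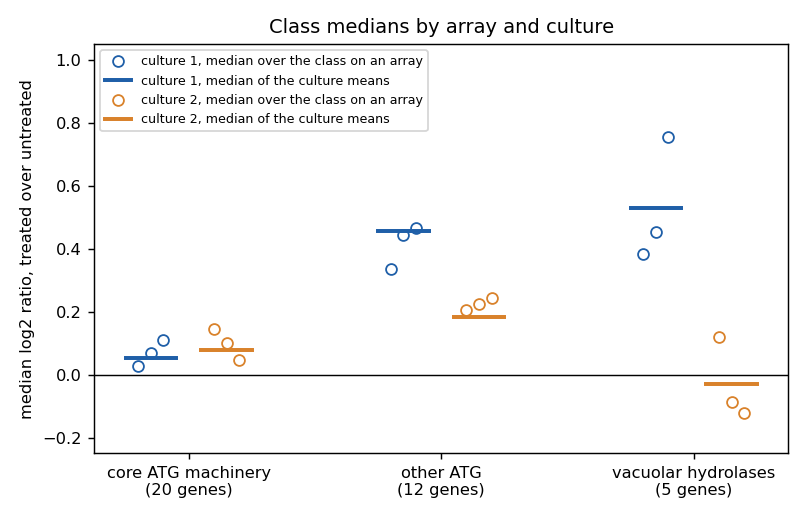
Median log2 ratio over the 20 core ATG genes, the 12 other ATG genes and the 5 vacuolar hydrolases (vertical axis); open circles are single arrays and bars the median of the culture means. The core medians of single arrays run from 0.03 to 0.14, while the hydrolase medians run from 0.38 to 0.76 in culture 1 and from −0.12 to 0.12 in culture 2.

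The difference between the cultures was tested gene by gene with limma over the 3 arrays of each culture. This test compares these 2 cultures, which also differed in the isotope label of the treated cells, and its error is that between technical arrays. With a difference above 1.5-fold and an adjusted p below 0.05, the ratios of 5 of the 37 genes were higher in culture 1 (13.5%, beside 4.72% of the 6290 genes tested) and that of 1 was higher in culture 2 (2.70%, beside 2.77%). The 5 were ATG8 (by 0.95 on the log2 scale, adjusted p = 0.00107), PRC1 (0.74, 0.0022), PRB1 (0.71, 0.00313), ATG33 (0.62, 0.00551) and PEP4 (0.62, 0.00393), and ATG1 was higher in culture 2 by 0.76 (adjusted p = 0.00567). CPS1 differed by 0.56 (adjusted p = 0.0129), just short of 1.5-fold. So 3 of the 5 hydrolases and 2 of the 20 core genes differed between the cultures by this test. Without the third array of culture 1 or the second of culture 2, PEP4 (0.55 and 0.56) and ATG33 (0.52 and 0.57) were below 1.5-fold.

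The ratios of culture 1 were more spread over the whole genome, and 27 of the 37 genes (73.0%, beside 63.1% of all genes) were further from 0 there. With the arrays scaled to a common spread, ATG8, PRB1, PRC1 and ATG1 still differed, and PEP4 (0.53) and ATG33 (0.53) fell below 1.5-fold. After quantile normalization PRC1 (0.58) fell below it as well, and ATG8 (0.96), PRB1 (0.75) and ATG1 (−0.60 for culture 1 minus culture 2) stayed above. The isotope label, the culture and its harvest changed together and cannot be told apart.

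**Figure D3:**
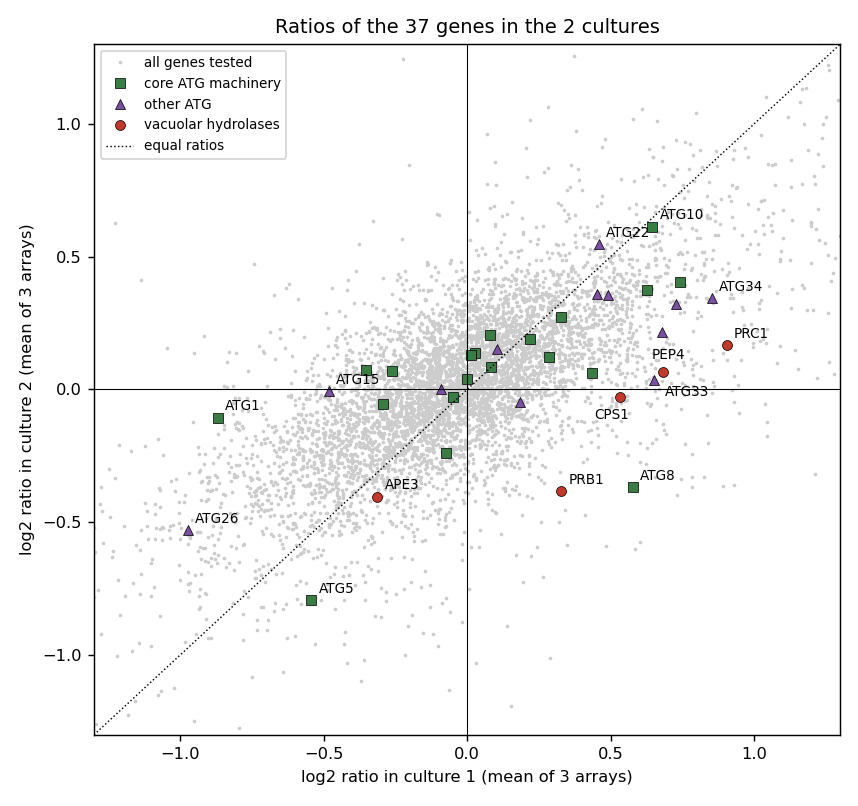
Mean log2 ratio of each gene in culture 1 (horizontal axis) and culture 2 (vertical axis); grey dots are all genes tested (those beyond 1.3 in either direction lie outside the axes), symbols the 37 genes by class, and the dotted line marks equal ratios. PRC1, PEP4, CPS1, PRB1, ATG33 and ATG8 lie to the right of and below the line, and ATG1 and ATG26 above it.

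Further genes of the pathway were taken from 8 lists of 86 distinct genes. All 8 lists were chosen with earlier results of these data known, so their counts are not independent evidence. Of 6 other vacuolar hydrolases, 4 rose and 0 fell by the rule of 1.5-fold and unadjusted p, although 0 passed the adjusted one (6 were higher at an unadjusted p below 0.05, limma). Over all genes 5.74% were higher and 4.74% lower by the rule, 3.04% were higher by the adjusted one and 14.0% were higher at an unadjusted p below 0.05. AMS1, the vacuolar mannosidase and a cargo of Atg19 and Atg34, was at 3.22 in culture 1 and 1.13 in culture 2 (mean 2.18, adjusted p = 0.0614). APE1, the aminopeptidase that is the main cargo of the Cvt pathway, was at 1.46 and 0.30 (mean 0.88, adjusted p = 0.116). The acid trehalase gene ATH1 (0.86 and 0.44) and PHO8, the vacuolar alkaline phosphatase used as a reporter of autophagy (0.78 and 0.46), rose as well. The list had medians of 0.82 and 0.37, and AMS1 and APE1 differed between the cultures by the test above.

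Inhibitors of the vacuolar proteases had medians of 1.45 in culture 1 and 0.06 in culture 2. Of the 3, 1 rose by the rule, beside 5.74% of all genes. It was PAI3, the inhibitor of Pep4 (1.63 in culture 1 and 0.51 in culture 2, mean 1.07, adjusted p = 0.0788). The inhibitors of Prb1 and Prc1, PBI2 (1.45 and 0.06) and TFS1 (0.86 and 0.01), did not meet the rule, and are named after their values had been seen. The ratios of all 3 were higher in culture 1 by the test between cultures, beside 4.72% of all genes. So were those of their target proteases PEP4, PRB1 and PRC1.

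Among 7 other autophagy genes 1 fell and 0 rose by the rule, beside 4.74% and 5.74% of all genes. ATG41, whose product acts with Atg9, gave −0.96, −1.61 and −1.74 in culture 1 and −1.21, −0.97 and −1.10 in culture 2. It fell below 0 on every array and also passed the adjusted threshold (mean −1.27, standard error 0.14, adjusted p = 0.0223). The change of ATG41 was larger than that of any of the 37 genes.

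Genes that sort proteases to the vacuole and genes of vacuole fusion stayed near 0. By limma, 0 of 13 sorting genes (medians 0.07 and 0.07) and 0 of 14 fusion genes (0.03 and 0.01) met the rule or had an unadjusted p below 0.05. In the list of TORC1, Sch9 and protein kinase A signalling, 0 of 13 met it (medians −0.04 and −0.09), with 1 higher and 1 lower at an unadjusted p below 0.05. Of 14 regulators of autophagy genes 2 rose, beside 5.74% of all genes. They were the GATA repressor gene DAL80 (1.76 and 0.90, adjusted p = 0.039) and the stress activator gene MSN4 (1.27 and 0.41, adjusted p = 0.0838).

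Nitrogen catabolite repressed genes, which are shut off by good nitrogen sources, moved in the same samples. Of 17 such genes 13 rose and 0 fell (beside 5.74% and 4.74% of all genes), and 7 were higher by the adjusted threshold (beside 3.04%), with medians of 1.34 in culture 1 and 0.77 in culture 2. The largest rises were those of the ammonium permease gene MEP2 (2.64 and 1.96), the proline permease gene PUT4 (3.28 and 0.78) and the general amino acid permease gene GAP1 (2.74 and 0.94). The list was chosen with earlier results of these arrays known, the rise of MEP2 among them, so its count is not independent evidence. Its part in the ratios of the 37 genes was not tested.

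**Figure D4:**
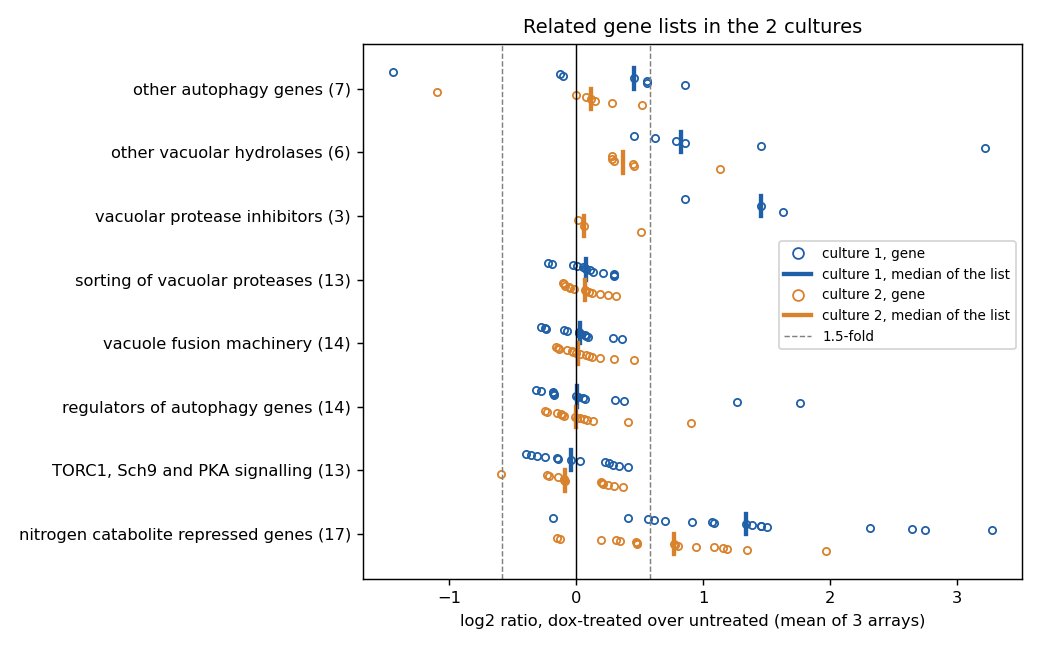
Log2 ratio of dox-treated over untreated cells (horizontal axis, mean of 3 arrays) for each gene of 8 related lists; open circles are genes, bars the list medians, colors the cultures and dashed lines 1.5-fold, and ATG42 belongs to both of the first 2 lists. The lists of other vacuolar hydrolases, protease inhibitors and nitrogen catabolite repressed genes lie to the right in culture 1, while sorting, fusion and signalling genes surround 0 in both cultures.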

How the data were processed

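Changes in mRNA were measured on 6 homemade two-color oligonucleotide arrays, 3 technical arrays from each of 2 cultures. The authors used GeneSpring GX for LOWESS normalization within arrays. The deposited table, with 1 value for each ORF on each array, was read as log2 ratios because the lowest value, −6.64, occurs 10 times and equals the log2 of 0.01. Further centering is not stated, and array medians lay between −0.03 and 0.02. The direction was taken from sample titles and dyes, and the low ratio of the HSC82 probe goes with it. Spot intensities, background correction and promoter, probe and protein sequences were not analysed here, so depth is given only as the number of arrays; 0 columns were left unused.

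The R64 reference table gave symbols for 5840 of the 6377 ORFs. Technical arrays were averaged per culture and the 2 culture means tested against 0 for 6290 genes (limma 3.58.1, R 4.3.3, lmFit and eBayes, two-sided, Benjamini-Hochberg over all genes). The standard errors of means come from this fit. They draw on the variance of all genes and do not use the spread between arrays of a culture. The thresholds, above 1.5-fold with p below 0.05, are those of the study's methods, which name no test. Cultures were compared by limma over 3 arrays each. Both tests were tried on simulated data, with outcomes not reported here. For the test between cultures the simulated noise was technical only, so it cannot show how often cultures that differ by chance are called.

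Values are given for all 37 genes, HSC82 and, of each related list, up to 3 called genes with the largest mean, plus PHO8, PBI2 and TFS1, which were added after their values were seen. Probes of the genes deleted in the strain were read as well. The genes, lists and tests were chosen with earlier results of these data known. Alternatives covered thresholds, the replicate unit, normalization, missing values, class definitions and each array or culture left out.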

Additional observations from a re-analysis of the deposited data

Results flagged for a closer look

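Across the 6 arrays, a single value far from the other 5 was looked for in 40 sets (the 37 genes, 2 class medians and HSC82). It was found in 2 sets. A chance rate of about 1 in 20 holds for independent values. Arrays of the same culture are not independent, so the number that chance gives here is not known. In culture 2, ATG11 read 0.070 on the first array, and the nearest other value was 0.42. In culture 1, ATG15 read −1.40 on the third array, and the nearest other value was −0.33.

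For 3 genes all arrays of one culture lay above 0 and all arrays of the other below 0. The share of all genes with this pattern was not counted, so the count is descriptive. For ATG21 the arrays of culture 2 read −0.0039, −0.012 and −0.12, the first 2 of them close to 0. For ATG8 culture 1 exceeded culture 2 by 0.95 (limma over 3 arrays against 3, adjusted p = 0.00107), for PRB1 by 0.71 (adjusted p = 0.00313) and for ATG21 by 0.23, which did not pass the test (adjusted p = 0.095). None of the 3 has a direction that holds over both cultures, and the cause was not tested.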

How the results depend on the processing

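With 2 cultures as replicates, precision rests on few arrays, and no depth or spot signal bears on it. The alternatives moved a main count or median in 29 cases and left it in 101. The number of genes called higher, 2, was 1 with the arrays scaled, 1 after quantile normalization, 1 with the adjusted p, 0 at 2-fold and 11 without a fold threshold; it ranged from 1 to 9 with an array or culture left out, with 9 in culture 1 alone and 1 in culture 2 alone by fold only. The number called lower, 2, was 0 with the adjusted p and 0 at 2-fold, and 1 to 2 with an array or culture left out. The number past the adjusted threshold, 1, was 0 after median centering of the arrays, 2 with scaling, 2 after quantile normalization, 3 with complete genes only, and 4 with the 6 arrays as replicates, with or without the culture as a random block; it was 0 to 2 with an array left out. For ATG10 the adjusted p (limma) ran from 0.0377 to 0.0954 with the culture means as replicates. It was 0.000133 with the 6 arrays as replicates, a fit that counts technical arrays as independent. With the culture as a random block it was 0.00209. ATG26 met the rule of 1.5-fold and unadjusted p in all 12 alternatives that kept both cultures and changed its values or test. In culture 2 alone its mean was −0.53, below 1.5-fold, and in culture 1 alone it was −0.97. The number of genes that differed between cultures, 6, was 3 after quantile normalization and 12 without a fold threshold, and 4 to 7 with an array left out. The core median of culture 2 was 0.070 to 0.13 with an array left out. With the 6 other vacuolar hydrolases added, chosen after the data had been seen, the hydrolase median of culture 2 went from −0.03 to 0.28 and its difference from the core from −0.11 to 0.20. Means near 0 changed sign with single arrays left out, and with an array or culture left out ranged from −0.028 to 0.042 for VPS15, −0.11 to 0.0030 for ATG16, −0.11 to 0.015 for ATG20 and −0.38 to 0.33 for PRB1. Each ratio already pairs treated with untreated cells of 1 culture, so no further pairing was fitted. The promoter search was not run.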
